A study of Rattus norvegicus with 23 samples.

Results

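The miRNAs described here belong to the X-linked miR-506 family of rat sperm. They are the mature products of the hairpins miR-463, miR-465, miR-871, miR-878, miR-880, miR-881 and miR-883, taken on both arms wherever the table has a row. By name, 12 of the 425 miRNA rows matched, and all 12 were above 0 in at least 8 of the 23 libraries, the limit that also kept 407 miRNAs for testing. miR-465-3p stood exactly at that limit with 8 libraries, and no matched row fell below it. miR-880-5p was not analysed here.

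Small RNA was sequenced from mature sperm of the cauda epididymis, the storage end of the duct, of 23 male Long-Evans rats. Of these, 7 breathed filtered air, 8 breathed 0.4 ppm ozone (chamber mean 0.401 ppm) and 8 breathed 0.8 ppm ozone (chamber mean 0.798 ppm). Each session lasted 4 h, with 3 sessions in week 1 and 2 in week 2. The sources used here do not state the ages of the rats. The comparison asks whether breathing ozone, an oxidant gas, alters the noncoding RNA of sperm.

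The miR-506 family is a set of fast-evolving miRNA genes clustered on the X chromosome. In mice it is expressed mainly in the testis, in developing germ cells. A mature miRNA guides an Argonaute protein to messenger RNAs that pair with its seed, bases 2 to 8 from the 5′ end. Each hairpin yields a 5p and a 3p product, of which 1 is usually retained in the Argonaute complex. Sperm of the cauda epididymis transcribe little, and their small RNA is held to derive from germ cell development and from vesicles of the epididymal epithelium.

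All 7 hairpins lie on the minus strand of the X chromosome, within chrX:150451962-150488242 of the GRCr8 assembly, a span of 36281 bases that holds 11 miRNA genes. The nearest protein-coding genes on either side are Slitrk2 and Ell2l1. In order of rising coordinate the hairpins are Mir883, Mir463, Mir880, Mir878, Mir881, Mir871 and Mir465. The annotation places Mir883 within the long noncoding RNA gene LOC120099202. It places Mir463 partly, and the other 5 hairpins wholly, within LOC108349259, another long noncoding RNA gene. Mir878 and Mir881 are the closest neighbours, with 372 bases between their hairpins.

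RefSeq holds a mature sequence for 11 of the 12 miRNAs, all but miR-881-5p. The 7 best-measured of them are shown here with the seed in capitals, because the seed sets which messenger RNAs a miRNA can pair with. miR-743a-5p, of a neighbouring hairpin of the same family, is added because it shares a seed with one of them.
miR-881-3p: uAACUGUGgcauuucugaauag
miR-871-5p: uAUUCAGAuuggugccggucacau
miR-743a-5p: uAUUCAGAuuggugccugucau
miR-465-5p: uAUUUAGAacggugcuggugug
miR-463-3p: uGAUAGACgccaauuuggguag
miR-463-5p: uACCUAAUuuguuguccauca
miR-883-3p: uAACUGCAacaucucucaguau
miR-880-3p: uACUCCAUucauucugaguaga

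The 11 sequences carry 11 distinct seeds, so none of them shares a seed with another of the 12 miRNAs that has a sequence. For 10 of the 11, no other mature miRNA among the 693 rat entries has that seed. The exception is miR-871-5p, whose seed is also that of miR-743a-5p. These sequences are identical over their first 16 bases and differ at 2 of 22 aligned positions, as G17U and C22U, counted from the 5′ end of miR-871-5p with its base first. Between miR-465-5p and miR-871-5p, 15 of 22 positions matched and 6 of the 7 seed bases were the same, the difference being U5C from miR-465-5p to miR-871-5p. miR-881-3p and miR-883-3p also matched at 15 of 22 positions, with 5 of 7 seed bases shared. A first base of U was present in 10 of the 11, against 36.2% of all mature entries, and the lengths ran from 21 to 24 nt.

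The values are normalised read counts: the reads of each miRNA divided by 1 factor per library. Whole reads were recovered from them, and the 12 miRNAs were read 947 to 3345 times per library for miR-881-3p but 0 to 4 times for miR-465-3p. Libraries had 213839 to 1286612 miRNA reads in all (median 628271), and 1 read was worth 0.470 to 2.53 in normalised count. Of the 5 germ cell miRNAs listed as markers, 4 had a row, each above 0 in every library, and together they held 23.4% to 50.6% of the table. All 5 epithelial markers (0.680% to 3.21% of the table), 3 of 5 muscle and stroma markers (1.53% to 11.3%), 6 of 6 leukocyte markers (1.68% to 6.27%) and 2 of 3 erythroid markers (0.00589% to 0.141%) also had rows. No row was present for miR-449c-5p, miR-133a-3p, miR-133b-3p or miR-486. In libraries of whole sperm pellets, fewer cells of a type and less RNA per cell cannot be told apart. One library each of the air and 0.8 ppm groups, and 2 of the 0.4 ppm group, stood apart in let-7a-5p, with 18785 to 28822 against 7961 to 11516 in the other 19 libraries, so each comparison was repeated without these 4.

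The 12 miRNAs together held 0.734% ± 0.159 of the miRNA table (SD, n = 23). In air rats the share was 0.720% ± 0.119 (n = 7), in 0.4 ppm rats 0.781% ± 0.208 (n = 8) and in 0.8 ppm rats 0.700% ± 0.142 (n = 8), and the groups overlapped. Almost all of it came from only 2 products, each from a different hairpin: miR-881-3p held 47.3% of the summed signal and miR-871-5p 42.0%. The other 10 miRNAs summed to 0.0700% ± 0.00841 of the table in air, 0.0773% ± 0.0141 at 0.4 ppm and 0.0894% ± 0.0176 at 0.8 ppm (SD). The remaining X-linked miR-506 family, 15 rows, held more of the table, 1.95% ± 0.375 (SD, n = 23). Its 4 most abundant products were miR-743b-3p at 4477 ± 1093, miR-743a-3p at 3575 ± 746, miR-201-5p at 1614 ± 815 and miR-741-3p at 988 ± 370 in normalised read count (SD, n = 23).

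miR-881-3p averaged 2129 ± 814 in normalised read count over all rats (SD, n = 23), rank 37 of the 425 rows. Its lowest, median and highest values were 1217, 1952 and 2981 in air, 1049, 1986 and 4950 at 0.4 ppm, and 1484, 2085 and 2284 at 0.8 ppm. The medians of the 3 groups were close together, and the widest spread was at 0.4 ppm, where 1 of the libraries with high let-7a-5p gave the top value.

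miR-871-5p averaged 1889 ± 501 (SD, n = 23), rank 39. Its lowest, median and highest values were 1392, 2183 and 2487 in air, 1269, 1575 and 3115 at 0.4 ppm, and 1267, 1602 and 2427 at 0.8 ppm. Both ozone medians were below the air median and the ranges overlapped. The order of the 2 leading products was not settled by these libraries, since miR-881-3p was the higher one in only 13 of 23. Both exceeded every other miRNA of the 12 by a wide margin, and miR-871-5p was above miR-463-3p in 23 of 23 libraries, by 3.58 ± 0.73 on the log2 scale (SD).

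The miR-463 hairpin came next. miR-463-3p averaged 158 ± 47.5 (SD, n = 23), with lowest, median and highest values of 120, 145 and 177 in air, 97.4, 131 and 181 at 0.4 ppm, and 72.8, 200.0 and 298 at 0.8 ppm. miR-463-5p averaged 103 ± 35.2, with 59.3, 82.4 and 110 in air, 50.7, 91.2 and 134 at 0.4 ppm, and 35.0, 127 and 181 at 0.8 ppm. For both arms the 0.8 ppm group had the highest median and also the single lowest rat of all 23, which was the 0.8 ppm library with high let-7a-5p.

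miR-465-5p averaged 133 ± 33.0 (SD, n = 23) and lay between the arms of miR-463. Its lowest, median and highest values were 87.9, 136 and 161 in air, 81.6, 119 and 186 at 0.4 ppm, and 104, 127 and 196 at 0.8 ppm. miR-463-3p was above miR-465-5p in 15 of 23 libraries, with a mean log2 difference of 0.23 ± 0.68 (SD). miR-465-5p was above miR-463-5p in 15 of 23, with a mean log2 difference of 0.41 ± 0.77. Neither order held in every library, and these differences were not tested. miR-463-3p was above miR-463-5p in 23 of 23. miR-883-3p averaged 41.8 ± 12.7, with medians of 32.5 in air, 39.2 at 0.4 ppm and 47.4 at 0.8 ppm, and was below miR-463-5p in 23 of 23 libraries.

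The remaining 6 miRNAs were read at most 41 times in a library. miR-880-3p averaged 11.7 ± 6.21 (SD, n = 23), miR-881-5p 10.9 ± 4.47, miR-878 9.80 ± 4.51, miR-871-3p 6.52 ± 2.31, miR-883-5p 4.97 ± 2.99 and miR-465-3p 0.657 ± 1.16. Counting error alone would give miR-871-3p a coefficient of variation of 41.2%, and the observed one was 35.5%, so no spread between rats beyond counting was detectable for it. For miR-881-3p counting error would give 2.28% against an observed 38.2%, and for miR-871-5p 2.42% against 26.5%. miR-465-3p had 16 reads in all 23 libraries and was 0 in 15 of them, where a count of 0 allows a normalised count of up to 1.55 to 7.19 (3 reads, counting error only). miR-883-5p was 0 in 2 libraries, with limits of 3.80 and 5.08, and miR-880-3p was 0 in 1, with a limit of 7.60.

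**Figure D1:**
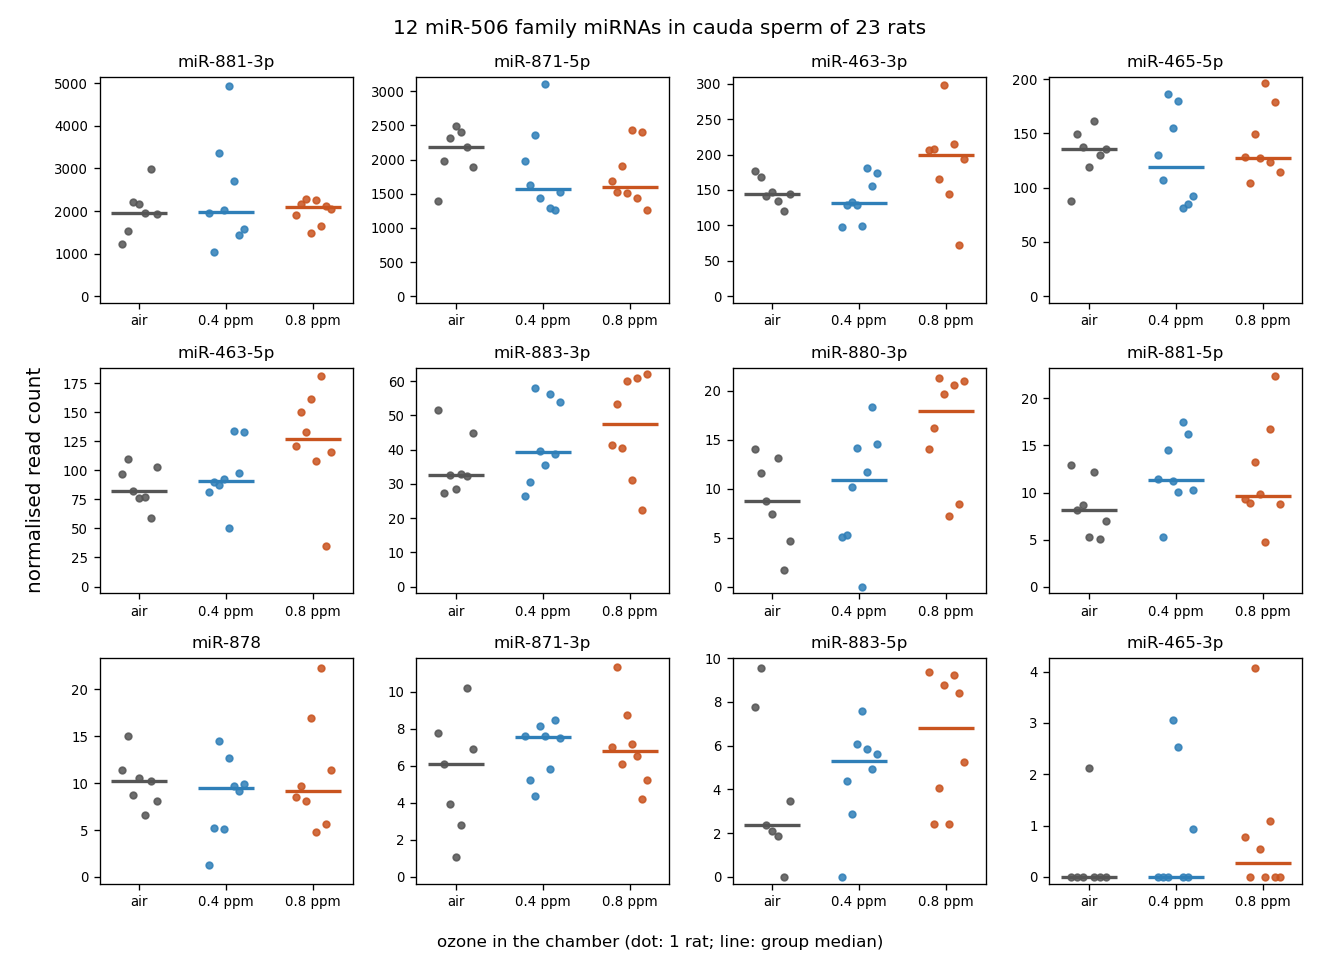
Normalised read count of each of the 12 miRNAs (vertical axes from 0, 1 scale per panel) in air, 0.4 ppm and 0.8 ppm rats. Dots are rats and lines are group medians. The groups overlap in every panel, and the 0.8 ppm median is the highest of the 3 for miR-463-3p, miR-463-5p, miR-880-3p, miR-881-3p, miR-883-3p, miR-883-5p and miR-465-3p.

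Of the 5 hairpins with rows for both arms, 4 gave at least 88.8% of their reads from 1 arm, but not from the same arm. The 5p arm held 99.6% of miR-871 reads and 99.5% of miR-465 reads, and the mean of the 5p arm was 290 and 202 times that of the 3p arm. The 3p arm held 99.4% of miR-881 reads, with a mean 196 times that of its 5p arm, and 88.8% of miR-883 reads, with a ratio of 8.41. The miR-463 hairpin was nearly balanced, with 60.4% of its reads from the 3p arm, yet the 3p arm was the higher one in 23 of 23 libraries. Its log2 difference of 5p minus 3p was -0.64 ± 0.25 (SD, n = 23). For every 1 of the 5 hairpins the same arm was higher in 23 of 23 libraries. Small RNA ligation can favour some ends over others, so ratios between arms also hold that preference, whose part was not tested.

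**Figure D2:**
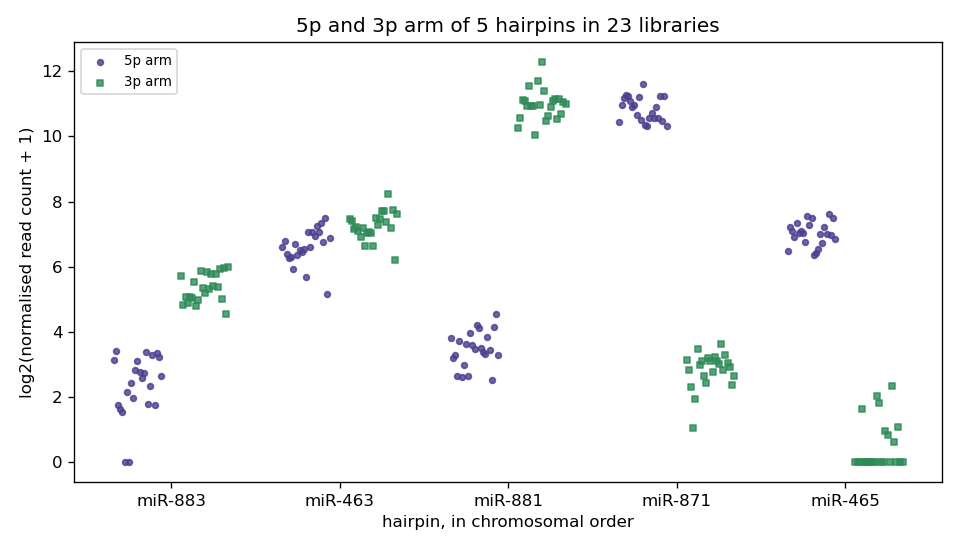
log2(normalised read count + 1) of the 5p arm (circles) and 3p arm (squares) of the 5 hairpins with rows for both arms, 1 point per library, hairpins in chromosomal order. The arms do not overlap for miR-883, miR-881, miR-871 and miR-465, and they overlap for miR-463, where the 3p arm averages 0.64 log2 units higher.

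No shift in the balance of arms with ozone passed the threshold. limma, fitted to the log2 difference of 5p minus 3p of the 111 hairpins with both arms, called 0 of the 5 at 0.8 ppm against air, 0 at 0.4 ppm against air and 0 at 0.8 ppm against 0.4 ppm, where it called 0% of the 111 in each comparison. Unadjusted p-values under 0.05 numbered 0, 5 and 5 of the 111, and 0 of the 5 here in each. The smallest p was that of miR-871, whose log2 5p minus 3p difference was lower by 0.69 at 0.8 ppm than in air (change -0.69, SE 0.38, 95% interval -1.48 to 0.10, limma unadjusted p = 0.0848, adjusted p = 0.944). Its 3p arm was read only 1 to 16 times per library.

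No miRNA of the 12 changed past the threshold at 0.8 ppm against air. In limma on log2(value + 1), fitted to all 3 groups at once and adjusted by the Benjamini-Hochberg procedure over 407 miRNAs, 0 of the 12 passed an adjusted p of 0.05, as did 0% of all 407. The number of the 407 with an unadjusted p under 0.05 was 9 in limma, 15 in edgeR and 18 in DESeq2, and neither of the count tests made a call after adjustment. Of the 12, these were 0, 1 and 2 in the 3 tests, 6 of the 12 (and 61 of the 407) in limma with library weights, and 4 of the 12 (24 of the 407) without the 4 libraries of high let-7a-5p. Of the 12 estimates 11 were positive (9 to 11 with 1 rat left out), with a median of 0.35, beside 51.1% positive and a median of 0.01 over all 407. This leaning was already known of the X-linked family in these libraries when the 12 were chosen, 1 of the 11 was 0.00 to 2 decimals (miR-878), and the miRNAs of a cluster are not independent of each other. miR-465-3p, another of the 11, met the limit for testing mostly through ozone rats. It was above 0 in 1 of 7 air libraries, 3 of 8 at 0.4 ppm and 4 of 8 at 0.8 ppm, so its sign adds no support.

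The smallest p at 0.8 ppm against air belonged to miR-880-3p. In rats at 0.8 ppm it averaged 16.1 ± 5.70 (SD, n = 8; lowest 7.19, median 17.9, highest 21.3), against 8.73 ± 4.53 in air rats (n = 7; lowest 1.69, median 8.72, highest 14.0). The ranges overlapped, with 6 of the 8 rats at 0.8 ppm above the highest air rat and 2 within the air range. Of these 6, 0.8 ppm replicate 1 was level with the highest air rat when rounded, both at 14.0. The log2 fold change was 0.91 ± 0.46 (SE), with a 95% interval of -0.03 to 1.85 and a limma adjusted p of 0.993. These values rest on 3 to 38 reads per library at 0.8 ppm and 1 to 27 in air. Without the 4 libraries of high let-7a-5p the log2 fold change was 0.74 (limma adjusted p = 0.833), and over 35 alternatives its adjusted p ran from 0.114 to 0.999.

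The other estimates at 0.8 ppm against air were 0.78 ± 0.46 for miR-883-5p on the log2 scale (SE), 0.44 ± 0.26 for miR-463-5p, 0.43 ± 0.33 for miR-871-3p, 0.38 ± 0.31 for miR-881-5p and 0.37 ± 0.39 for miR-465-3p. They were 0.33 ± 0.24 for miR-883-3p, 0.26 ± 0.23 for miR-463-3p, 0.08 ± 0.22 for miR-465-5p, 0.03 ± 0.24 for miR-881-3p, 0.00 ± 0.36 for miR-878 and -0.26 ± 0.21 for miR-871-5p. The SEs were 0.21 to 0.26 for the 6 more abundant products and 0.31 to 0.46 for the other 6. For miR-881-3p the interval ran from -0.47 to 0.53, and for miR-871-5p from -0.68 to 0.16. The ranges of the groups overlapped for each of the 12, and 0% of the 407 miRNAs had groups that did not overlap. The germ cell marker share was 41.3% ± 9.14 in 0.8 ppm rats (SD, n = 8) and 42.2% ± 5.40 in air rats (n = 7), and that of muscle and stroma markers was 3.24% ± 3.28 in 0.8 ppm rats and 1.94% ± 0.522 in air rats, but 2.09% ± 0.480 at 0.8 ppm without replicate 7, which held 11.3% and is 1 of the libraries of high let-7a-5p. The epithelial share was 1.27% ± 0.713 in 0.8 ppm rats and 1.13% ± 0.325 in air rats (SD). The leukocyte share was 2.44% ± 0.907 in 0.8 ppm rats and 2.77% ± 0.886 in air rats. The erythroid share was 0.0352% ± 0.0161 in 0.8 ppm rats and 0.0338% ± 0.0120 in air rats. The part of these markers in the results was not tested.

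At 0.4 ppm against air, a comparison with the same air rats, the estimates were divided in sign. limma called 0 of the 12, as it called 0% of the 407, with 22 of the 407 at an unadjusted p under 0.05 in limma, 26 in edgeR and 31 in DESeq2, and 0 calls by either count test. Of the 12, 0 had such a p in each of these tests, and 1 did with library weights (40 of the 407) and 1 without the 4 libraries (52 of the 407). The log2 fold change was positive for 7 of the 12, with a median of 0.13, beside 48.2% positive and a median of -0.02 over all 407. The 7 include miR-465-3p, which met the limit for testing mostly through ozone rats. The smallest p was that of miR-881-5p, the minor arm of its hairpin, which averaged 12.1 ± 3.91 in 0.4 ppm rats (SD, n = 8) and 8.47 ± 3.10 in air rats (n = 7). The log2 difference was 0.46 ± 0.31 (SE, 95% interval -0.17 to 1.09, limma adjusted p = 0.812). The other estimates ran from -0.39 ± 0.36 for miR-878 to 0.42 ± 0.33 for miR-871-3p, with -0.24 ± 0.21 for miR-871-5p and 0.14 ± 0.24 for miR-881-3p. No group pair of the 12 was free of overlap, beside 0% of the 407. In the same libraries the germ cell marker share was 35.3% ± 6.38 in 0.4 ppm rats (SD, n = 8) and 42.2% ± 5.40 in air rats (n = 7), and the epithelial marker share was 1.77% ± 0.713 in 0.4 ppm rats and 1.13% ± 0.325 in air rats. The muscle and stroma share was 2.85% ± 0.704 in 0.4 ppm rats and 1.94% ± 0.522 in air rats, and the erythroid share 0.0586% ± 0.0495 in 0.4 ppm rats and 0.0338% ± 0.0120 in air rats (SD). Without replicate 2, which held 0.141%, the erythroid share at 0.4 ppm was 0.0469% ± 0.0396. Without replicate 6, which held 3.21%, the epithelial share at 0.4 ppm was 1.57% ± 0.444. The leukocyte share was 3.13% ± 1.58 in 0.4 ppm rats and 2.77% ± 0.886 in air rats (SD). The part of these marker lists in the results was not tested.

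At 0.8 ppm against 0.4 ppm, limma again called 0 of the 12 and 0% of the 407, with 15 of the 407 at an unadjusted p under 0.05, 18 in edgeR and 25 in DESeq2, and 0 calls by either count test. Of the 12 these were 1, 0 and 1, with 4 under library weights (89 of the 407) and 3 without the 4 libraries (55 of the 407). Estimates were positive for 9 of the 12, with a median of 0.14, beside 53.1% and a median of 0.02 over all 407. The smallest p was again that of miR-880-3p, at 16.1 ± 5.70 with 0.8 ppm (SD, n = 8) and 9.90 ± 6.07 with 0.4 ppm (n = 8). Its log2 fold change was 0.94 ± 0.45 (SE, 95% interval 0.03 to 1.84, limma unadjusted p = 0.0440, adjusted p = 0.729). Without 0.4 ppm replicate 5, which had 0 reads of it, the log2 fold change was 0.50 (limma unadjusted p = 0.166). That was the lowest of a range of 0.50 to 1.11 with 1 rat left out. Of these 23 fits, 9 gave a limma unadjusted p above 0.05, and all 9 left out a rat of the compared groups. Fits without an air rat, which is outside this comparison, kept the estimate at 0.94 and the unadjusted p under 0.05. The log2 fold change was 0.61 in edgeR (unadjusted p = 0.0865) and 0.60 without the 4 libraries of high let-7a-5p (limma unadjusted p = 0.0745). Adjusted p-values over the 35 alternatives ran from 0.207 to 0.996. miR-463-3p followed with 0.39 ± 0.22, at 188 ± 64.8 with 0.8 ppm and 137 ± 31.1 with 0.4 ppm (SD), and a limma adjusted p of 0.729. The groups overlapped for each of the 12, as for all 407, where 0% did not. The 0.8 ppm group serves in both comparisons that single out miR-880-3p, so these are not 2 separate observations. The germ cell marker share was 41.3% ± 9.14 in 0.8 ppm rats and 35.3% ± 6.38 in 0.4 ppm rats (SD). In the same order the shares were 1.27% ± 0.713 and 1.77% ± 0.713 for epithelium and 3.24% ± 3.28 and 2.85% ± 0.704 for muscle and stroma. They were 2.44% ± 0.907 and 3.13% ± 1.58 for leukocytes and 0.0352% ± 0.0161 and 0.0586% ± 0.0495 for erythroid markers. The part of these markers in these differences was not tested.

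Among the other 15 X-linked family rows limma also called 0 in each comparison, with 0 at an unadjusted p under 0.05 at 0.8 ppm against air, 1 at 0.4 ppm against air and 0 at 0.8 ppm against 0.4 ppm. Estimates were positive for 10, 10 and 11 of the 15, with medians of 0.13, 0.17 and 0.25. The log2 fold changes at 0.8 ppm against air were 0.11 ± 0.20 for miR-743b-3p (SE), 0.13 ± 0.18 for miR-743a-3p, -0.05 ± 0.30 for miR-201-5p and 0.47 ± 0.26 for miR-741-3p. At 0.4 ppm against air they were -0.19 ± 0.20, -0.16 ± 0.18, 0.39 ± 0.30 and 0.06 ± 0.26 in the same order.

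**Figure D3:**
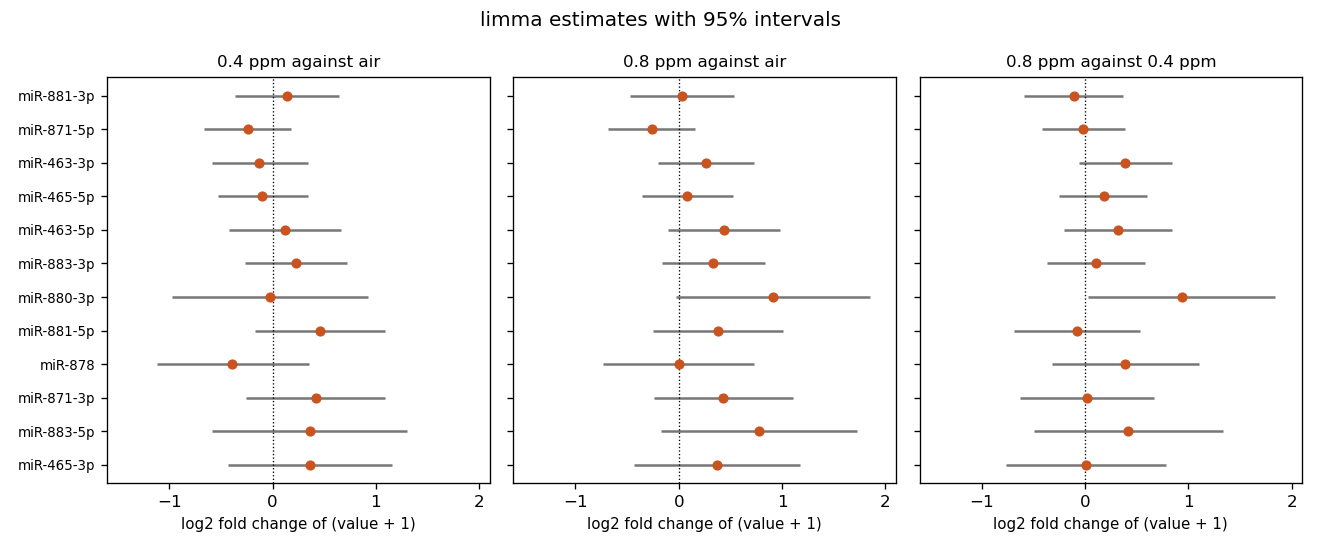
limma log2 fold change of (value + 1), with 95% intervals, for the 12 miRNAs in order of falling mean level, at 0.4 ppm against air, 0.8 ppm against air and 0.8 ppm against 0.4 ppm. All intervals at 0.4 ppm or 0.8 ppm against air include 0, and at 0.8 ppm against 0.4 ppm that of miR-880-3p, from 0.03 to 1.84, does not, although its adjusted p is 0.729.

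Products of neighbouring hairpins did not vary as 1 group from rat to rat. Of the 66 pairs of the 12 miRNAs, 41 had a positive and 25 a negative Spearman correlation over the 23 libraries, with a median of 0.11, beside a median of 0.00 over all pairs of tested miRNAs. These correlations share library depth and scaling and are given as a description. The highest was that of the 2 arms of miR-463, with a rho of 0.88, and 0.83 after log2 library reads were removed from both. miR-463-3p also followed miR-880-3p (rho 0.73), miR-883-3p (0.70) and miR-878 (0.51). A second set was formed by miR-871-5p, miR-465-5p and miR-881-3p over all 23 libraries. The rho values were 0.74 for miR-871-5p and miR-465-5p, 0.52 for miR-871-5p and miR-881-3p and 0.49 for miR-465-5p and miR-881-3p. Without the 4 libraries of high let-7a-5p they were 0.66, 0.32 and 0.31 in the same order. After log2 reads were removed, the pairs with miR-881-3p had 0.48 for miR-871-5p and 0.30 for miR-465-5p. The pair miR-871-5p and miR-465-5p, which differ at 1 seed base, kept a rho of 0.67 after log2 reads were removed.

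miR-871-5p was negatively correlated with 4 miRNAs of the first set, before and after depth was removed. For miR-871-5p the rho was -0.67 with miR-463-5p, -0.67 with miR-880-3p, -0.64 with miR-883-3p and -0.62 with miR-463-3p. After removal of log2 reads these were -0.56, -0.44, -0.51 and -0.43. With miR-878 the rho of miR-871-5p was -0.20, and 0.06 after that removal. The correlations of miR-881-3p and miR-465-5p with that set were nearer to 0 or positive after the removal. For miR-881-3p the rho was -0.36 with miR-463-3p, -0.32 with miR-463-5p, -0.32 with miR-880-3p, -0.06 with miR-883-3p and -0.02 with miR-878, and after removal -0.04, -0.13, -0.13, 0.20 and 0.41. For miR-465-5p it was -0.58 with miR-463-3p, -0.46 with miR-463-5p, -0.37 with miR-880-3p, -0.37 with miR-883-3p and -0.23 with miR-878, and after removal -0.19, -0.17, 0.06, -0.24 and 0.04. miR-878 and miR-881-3p, whose hairpins are 372 bases apart, had a rho of -0.02, and miR-878 was read only 1 to 41 times per library. Among the hairpins with rows for both arms, miR-463 alone had both arms read at least 20 times in every library. The arms of miR-871 had a rho of -0.35, those of miR-881 -0.02, those of miR-883 0.31 and those of miR-465 0.10. In these 4 the minor arm was read 1 to 16, 2 to 31, 0 to 17 and 0 to 4 times per library, too few to show whether the arms vary together. miR-743a-5p, which has the seed of miR-871-5p, averaged 774 ± 138 in normalised read count (SD, n = 23) and had a rho of 0.65 with miR-871-5p, 0.29 with miR-881-3p and -0.03 with miR-463-3p. Log2 reads were not removed from these values. miR-743a-5p and miR-871-5p match at 20 of 22 positions and the multi-mapping rules are not stated. Whether reads of either were counted for the other was not tested.

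**Figure D4:**
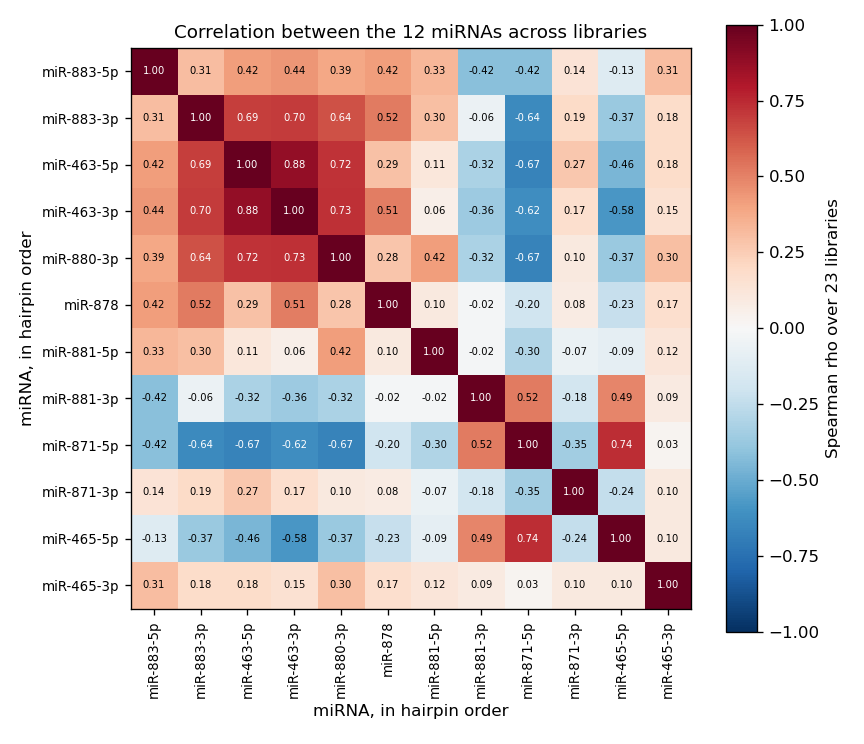
Spearman rho over 23 libraries between each pair of the 12 miRNAs, in the order of the hairpins on the chromosome, red for positive and blue for negative. miR-883-3p, miR-463-5p, miR-463-3p and miR-880-3p form a red block with rho from 0.64 to 0.88, miR-881-3p, miR-871-5p and miR-465-5p a second one from 0.49 to 0.74, and the cells between miR-871-5p and the first block run from -0.67 to -0.62. Without the 4 libraries of high let-7a-5p, miR-881-3p had a rho of 0.32 with miR-871-5p and 0.31 with miR-465-5p.

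The level averaged over the 12, after each was centred on its own mean, was most like those of miR-29a-3p (Spearman rho 0.80), miR-16-5p (0.77), miR-471-5p (0.75), miR-20a-5p (0.72) and miR-19b-3p (0.71) over the 23 libraries. Of these only miR-471-5p is of the X-linked family, and it averaged 24.1 ± 14.1 in normalised read count (SD). All 5 also followed log2 library reads, with rho from 0.60 to 0.89, and the average itself did so with 0.50. The average weighs each miRNA equally, so miR-871-5p and miR-881-3p, which hold most of the signal, had rho values of -0.51 and -0.11 with it.

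Library depth went with the summed share of the 12 and, tested 1 by 1, with the levels of 3 of them, not in 1 direction. Reads ran from 394925 to 1199769 in air libraries, 251123 to 1286612 at 0.4 ppm and 213839 to 1245602 at 0.8 ppm, so the groups overlapped in depth. The share of the table held by the 12 was lower in deeper libraries, with a Pearson r of -0.86 and a Spearman rho of -0.84 against log2 miRNA reads over 23 libraries, and -0.83 and -0.80 when the 2 libraries farthest in depth were left out. The share of miR-871-5p and miR-881-3p gave -0.86 and -0.88, and that of the other 10 miRNAs 0.19 and 0.31. All of these correlations between a share and depth are given as descriptions, since reads enter both axes.

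Tested 1 by 1 over all 407 miRNAs, with 100000 random orders of the libraries and Benjamini-Hochberg adjustment, 12.5% of miRNAs were positively and 7.13% negatively correlated with log2 reads at an adjusted p under 0.05 by both coefficients. Of the 12 here, 2 were positive and 1 was negative by that rule, close to the shares over all 407. miR-881-3p fell with depth, with a Pearson r of -0.66 (permutation adjusted p = 0.00435) and a Spearman rho of -0.72 (adjusted p = 0.00244), and an r of -0.71 without the 2 farthest libraries. miR-463-3p had an r of 0.56 (permutation adjusted p = 0.0242) and a rho of 0.65 (adjusted p = 0.00992), and an r of 0.77 without the 2 farthest. miR-880-3p had an r of 0.60 (permutation adjusted p = 0.0142) and a rho of 0.66 (adjusted p = 0.00918), and an r of 0.75 without the 2 farthest. The raw permutation p of these 3 were 5.80e-04, 0.00458 and 0.00240 for r, and 2.10e-04, 0.00117 and 0.00105 for rho. Library reads also enter these values through the factor of each library. Random orders break that link, so these p-values do not account for it.

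Without the 4 libraries of high let-7a-5p, r was -0.59 for miR-881-3p, which stayed past the threshold, and 0.50 for miR-463-3p (larger permutation adjusted p = 0.10) and 0.51 for miR-880-3p (0.0928), which did not. miR-878 then passed, with an r of 0.58 (larger permutation adjusted p = 0.0491). With values and reads centred within each treatment group, r was -0.66 for miR-881-3p, 0.62 for miR-880-3p and 0.55 for miR-463-3p, and miR-463-3p no longer passed (larger permutation adjusted p = 0.0891). miR-871-5p (r = -0.45, rho = -0.46) and miR-465-5p (r = -0.40, rho = -0.44) did not pass by either coefficient (smallest permutation adjusted p = 0.0923 and 0.123). With log2 reads as a covariate in limma, the log2 fold changes of miR-880-3p were 0.94 at 0.8 ppm against air and 0.61 at 0.8 ppm against 0.4 ppm, with 0 of the 12 called in each comparison.

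**Figure D5:**
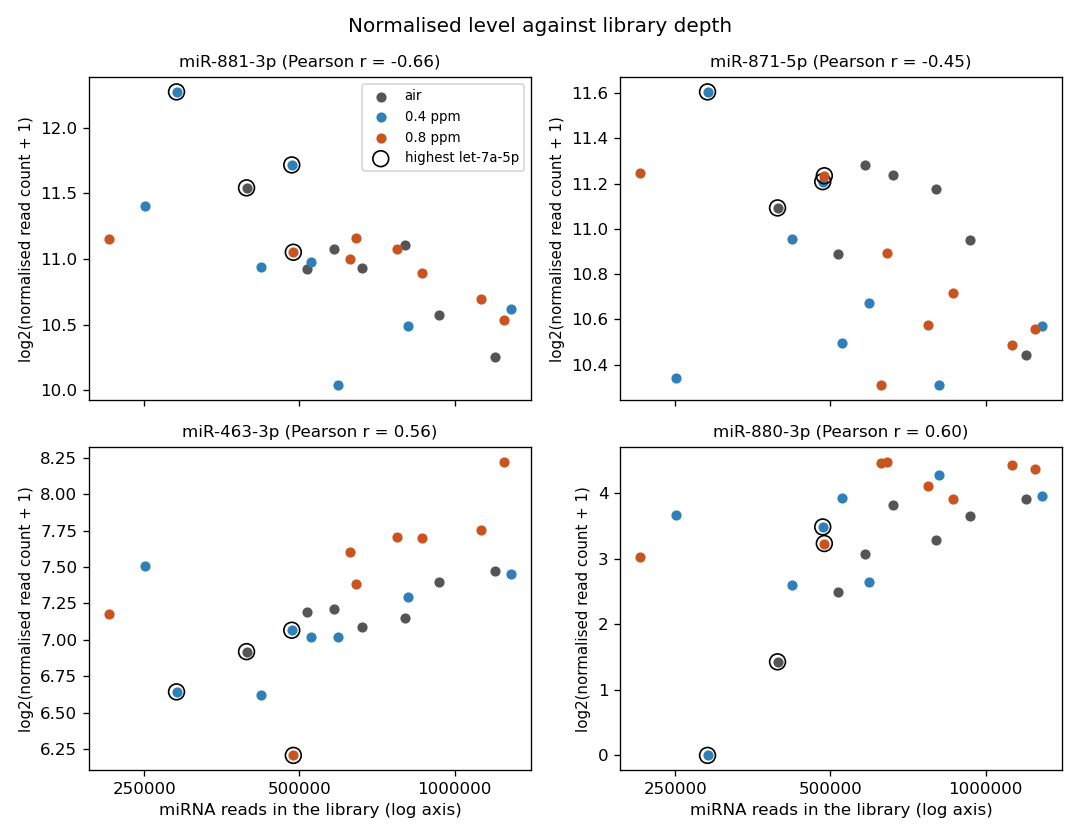
log2(normalised read count + 1) against miRNA reads in the library (log axis) for miR-881-3p, miR-871-5p, miR-463-3p and miR-880-3p, 1 point per rat, coloured by treatment, with the 4 libraries of high let-7a-5p circled. miR-881-3p falls with depth (r = -0.66), miR-463-3p and miR-880-3p are higher in deeper libraries (r = 0.56 and 0.60), and miR-871-5p has an r of -0.45 that did not pass the threshold.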

How the data were processed

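One table of miRNA rows was analysed. Per the submitters' processing notes, Partek, Bowtie 1.0.0 and the build rn6 were used; trimming and multi-mapping rules are not stated in the sources used here. What the authors deposited is a normalised signal, made by dividing reads by 1 factor per library. Of the 241 to 286 values of 1 to 200 reads checked in each library, 100% were whole multiples of 1 step within 0.1 read. That recovered 213839 to 1286612 reads per library, the input of edgeR 4.0.16 and DESeq2 1.42.0.

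Testing used limma 3.58.1 (R 4.3.3) on log2(value + 1), with trend and robust moderation, over 407 miRNAs above 0 in at least 8 libraries. All 3 groups shared 1 model, and the Benjamini-Hochberg threshold was 0.05, two-sided. Fold changes of low miRNAs on this scale depend on the count added before the log. For miR-880-3p at 0.8 ppm against air, the log2 fold change was 0.91 with 1 added, 0.97 with 0.5 and 0.48 with 10. It was 0.80 there in edgeR and 0.85 in DESeq2. At 0.8 ppm against 0.4 ppm it was 0.94 in limma, 0.61 in edgeR and 0.64 in DESeq2. The limma values are thus not always the smaller ones. Arm balance was fitted in the same way over 111 hairpins. The limma fits were checked on simulated data, with miRNAs drawn independently and planted shifts larger than most estimates here. Recovery of those shifts was read out only for better-read miRNAs. The check therefore does not cover smaller shifts, low miRNAs or the let-7a-5p differences between libraries. Intervals and limits for counts of 0 cover counting error only, since reads carry no molecular identifiers. Replicate numbers follow the order of the records and pair nothing. The sources used here do not say which libraries ran together and give no RNA integrity number per sample (2 to 4 over all, per the labels).

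Coordinates and sequences are those of RefSeq on GRCr8, which is not the authors' build. Of 8 air rats in the design text, 7 have a library here. Named are all 12 miRNAs, the 4 most abundant of the other X-linked family and the 5 others most like the 12. The miRNAs, lists and tests were chosen with earlier results of these data known. Alternatives tried were 2 pseudocounts, 2 filters, 2 scalings, library weights, edgeR, DESeq2, the compared groups alone and leaving out each rat. After the data were seen, log2 reads as a covariate and leaving out 4 libraries of high let-7a-5p were added. Python 3.11.15, scipy 1.17.1 and matplotlib 3.10.9 were also used.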

Additional observations from a re-analysis of the deposited data

Results flagged for a closer look

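A single sample stood apart by the ratio of its gap to the group's range in 3 of the 39 groups of values examined (12 miRNAs and their summed share, in 3 treatments), where chance gives about 1 in 20. The 12 miRNAs held 1.02% of the table in 0.8 ppm replicate 5 (95% Wilson interval of the share of reads 0.974% to 1.06%), against 0.543% to 0.722% in the other 7 rats of that group. That library is the shallowest of the 23, with 213839 reads. miR-465-3p stood at 4.06 in normalised read count in 0.8 ppm replicate 3, against 0 to 1.09 in the other rats of that group, and at 2.12 in air replicate 4, against 0 in the other 6. These rest on 4 and 2 reads. With 6 rats at 0 any value above 0 would have stood out in air, and a count of 0 allows up to 1.55 to 5.08 in those 6 libraries, more than 2.12 in 4 of them.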

How the results depend on the processing

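No miRNA of the 12 and none of the 5 hairpins was called under any alternative run, in any of the 3 comparisons, each fit with 1 rat left out included. The nearest was miR-463-5p at 0.8 ppm against air with library weights (log2 fold change 0.67, limma adjusted p = 0.0618), a fit that called 3 other miRNAs. With 1 rat left out, the median log2 fold change of the 12 ran from 0.28 to 0.45 at 0.8 ppm against air, 0.03 to 0.21 at 0.4 ppm against air and 0.07 to 0.22 at 0.8 ppm against 0.4 ppm. With a mean value of at least 10 only 8 of the 12 are tested, and 7, 4 and 5 estimates were positive in these comparisons. Estimates changed sign 81 times in all, and not all were small in the unaltered limma fit. There the arm balance of miR-883 was 0.45 at 0.8 ppm against air, and miR-883-5p was 0.36 at 0.4 ppm against air. None of the 81 was called, the largest value after the change of sign was 0.41, and the cause was not tested. The other 2030 results give no rate to set beside these. They include counts of calls and fits without a rat of the group not compared, which could not change sign.

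At 0.8 ppm against air, the sign changed for miR-465-5p with library weights (-0.11) and for miR-881-3p with edgeR (-0.04). With a pseudocount of 10, arm balance there was 0.01 for miR-465 and -0.04 for miR-883, and without the 4 libraries of high let-7a-5p it was -0.07 for miR-883.

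At 0.4 ppm against air, miR-880-3p was 0.06 with a pseudocount of 10, 0.05 with each library scaled to 1 total, 0.01 with quantile normalization, 0.27 with library weights, 0.18 with edgeR, 0.20 with DESeq2, 0.34 with log2 reads as a covariate and 0.14 without the 4 libraries. miR-465-5p was 0.02 with that scaling. miR-881-3p was -0.09 with library weights, -0.05 with the covariate and -0.07 without the 4. miR-463-3p was 0.01 with the covariate, and miR-883-5p -0.05 without the 4. Arm balance of miR-883 was -0.09 with a pseudocount of 10 and -0.21 without the 4.

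At 0.8 ppm against 0.4 ppm, miR-871-3p was -0.07 with libraries scaled to 1 total and -0.02 with the covariate. miR-465-3p was -0.14 with quantile normalization and -0.03 with the covariate. miR-871-5p was 0.02 with quantile normalization, 0.09 with the covariate and 0.13 without the 4. miR-881-3p was 0.10 with library weights, 0.06 with the covariate and 0.19 without the 4. miR-881-5p was 0.01 with DESeq2. Arm balance of miR-881 was -0.18, -0.22 and -0.38 under these 3 settings in turn (weights, covariate, without the 4), and that of miR-871 was 0.11 with the covariate and 0.09 without the 4.

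With 1 rat left out, estimates that crossed 0 at 0.8 ppm against 0.4 ppm ran from -0.24 to 0.21 for miR-465-3p, -0.08 to 0.10 for miR-871-3p, -0.09 to 0.10 for miR-871-5p, -0.26 to 0.06 for miR-881-3p and -0.22 to 0.06 for miR-881-5p. Arm balance there ran from -0.19 to 0.10 for miR-871 and -0.17 to 0.20 for miR-881. At 0.4 ppm against air the ranges were -0.30 to 0.41 for miR-880-3p, -0.03 to 0.29 for miR-881-3p and -0.18 to 0.43 for the arm balance of miR-883. At 0.8 ppm against air they were -0.01 to 0.14 for miR-465-5p, -0.08 to 0.13 for miR-881-3p and -0.16 to 0.13 for miR-878, whose estimate with every rat was 0.00 and which the 81 leave out. The number of positive estimates then ran from 9 to 11, and from 7 to 8 at 0.4 ppm against air and 7 to 11 at 0.8 ppm against 0.4 ppm.

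No paired analysis was possible because the labels give no number that is said to tie rats of different groups. The S numbers in the sample names run from 1 to 12, and 11 of them stand on 2 libraries, 9 of these in different groups. No source used here says which libraries shared a pool or run, so no value within a run could be made. Depth limits the 6 miRNAs of the lowest levels, read at most 41 times in a library, whose log2 fold changes had SEs of 0.30 to 0.46, against 0.20 to 0.26 for the other 6.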
